A study of Homo sapiens with 6 samples.

Results

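A set of 34 genes of mitosis and the spindle was followed in RNA sequencing of lung cancer cells given siRNAs against LGR6, a receptor that binds R-spondins and acts on Wnt signalling. The genes were taken by symbol, and all 34 symbols were found among the 23686 genes of the deposited tables. The series holds 6 libraries from 2 established human non-small cell lung carcinoma lines, A427 and HCC15, whose genotype is labelled WT. Each line was transfected with a control siRNA (labelled Tax), with LGR6 siRNA 2 or with LGR6 siRNA 4, and was collected 48 h later from RPMI medium with 5% serum. Each combination of line and siRNA has 1 library, so no value has a replicate of its own, and whether separate cultures gave the 6 libraries is not in the labels. In the fits with a term for each siRNA, the p-values therefore measure how far the effect of an siRNA differed between the lines. Where both LGR6 siRNAs count as 1 group, the spread holds how far siRNA 2 and siRNA 4 differed. None of them measures the spread between repeats of a culture.

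Mitosis begins when cyclin-dependent kinase 1 is switched on, and the Aurora and Polo-like kinases then build a bipolar spindle from microtubules, motor kinesins and bundling proteins. Kinetochores tie each chromosome to the spindle, and the spindle checkpoint holds back the anaphase promoting complex until all are attached. Separase then cuts cohesin, the chromosomes part, and the passenger complex and midzone proteins set the site of cytokinesis. The genes of this machinery are transcribed mainly in late S, G2 and M phase, and their summed level is widely used as a measure of proliferation in tumours. In bulk RNA, fewer cells in mitosis and less RNA per cell cannot be told apart.

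Many of these genes share a promoter layout of CCAAT boxes, which bind NF-Y, upstream of a cell cycle genes homology region (CHR), which binds the MuvB complex with its partners B-MYB and FOXM1. Promoters of 28 of the 34 genes were matched by symbol in a RefSeq table (GRCh38.p14) of windows from 250 bases before to 50 bases after the start of the gene. The genes AURKA, BIRC5, TPX2, TTK, FOXM1 and UBE2C were not matched. The letters searched were TTTGAA or TTCGAA for the CHR and CCAAT for the box, each on both strands, and a TTTGAA can share its last bases with an ATTGG, the CCAAT box of the other strand. At least 1 CHR sequence was found in 23 of the 28 genes (82.1%), against 19.5% of the 27305 genes of the table and 15.3% of the 10354 genes tested here that were matched. A CCAAT box was likewise found in 23 of the 28 (82.1%), against 39.7% and 42.9%, and both were found in 20 (71.4%), against 7.85% and 6.38%. A match describes letters and is not a bound site. HMMR, BUB1 and KIF2C had matched promoters and passed in an siRNA comparison below but are not shown. The windows of HMMR and BUB1 held both sequences, and that of KIF2C held neither. The 120 bases upstream of the start are shown for 8 other genes that passed in at least 1 of these comparisons. They are read 5′ to 3′ along the gene, with the matched letters in capitals.
CDCA8, chr1:37692396-37692515, plus strand: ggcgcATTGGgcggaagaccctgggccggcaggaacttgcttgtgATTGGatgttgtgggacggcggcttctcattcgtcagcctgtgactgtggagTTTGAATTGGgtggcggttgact
KIF11, chr10:92593010-92593129, plus strand: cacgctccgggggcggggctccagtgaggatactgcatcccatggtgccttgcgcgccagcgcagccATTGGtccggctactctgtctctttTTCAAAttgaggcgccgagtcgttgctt
KIF23, chr15:69414229-69414348, plus strand: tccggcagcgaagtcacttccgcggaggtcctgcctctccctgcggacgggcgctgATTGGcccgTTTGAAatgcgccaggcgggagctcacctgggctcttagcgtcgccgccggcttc
ESPL1, chr12:53268179-53268298, plus strand: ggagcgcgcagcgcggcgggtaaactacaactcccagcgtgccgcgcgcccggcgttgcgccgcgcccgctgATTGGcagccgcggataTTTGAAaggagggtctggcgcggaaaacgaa
INCENP, chr11:62123891-62124010, plus strand: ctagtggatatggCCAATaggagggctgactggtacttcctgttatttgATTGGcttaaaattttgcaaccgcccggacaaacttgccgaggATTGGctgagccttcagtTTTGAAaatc
NUSAP1, chr15:41332761-41332880, plus strand: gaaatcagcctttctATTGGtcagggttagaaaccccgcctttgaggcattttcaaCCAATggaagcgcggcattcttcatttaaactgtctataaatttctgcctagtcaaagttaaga
TOP2A, chr17:40417897-40418016, minus strand: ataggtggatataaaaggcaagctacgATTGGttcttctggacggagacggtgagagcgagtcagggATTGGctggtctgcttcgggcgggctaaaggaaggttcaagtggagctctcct
MAD2L1, chr4:120066849-120066968, minus strand: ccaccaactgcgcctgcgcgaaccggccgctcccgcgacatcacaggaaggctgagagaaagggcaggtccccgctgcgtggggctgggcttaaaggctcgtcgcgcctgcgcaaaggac
In CDCA8 the CHR and a reversed CCAAT box share letters and appear as 1 run of capitals. In KIF11, KIF23, ESPL1 and INCENP the CHR stands downstream of a CCAAT box and upstream of the start. In TOP2A the letters of the CHR lie further upstream than the stretch shown, and in MAD2L1 and NUSAP1 they lie downstream of the start, so they are not seen in these 120 bases.

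The libraries held 25546400 to 28987900 reads, and all 34 genes passed the filter on low counts. LGR6 itself was counted with 257 reads in the HCC15 control, 39 with siRNA 2 and 77 with siRNA 4, which is 14.0% and 30.7% of its control in CPM (read counts scaled to library size). In A427 it had 5 reads in the control and 0 in both siRNA libraries, and a count of 0 allows up to 3 reads, so the silencing can be read in HCC15 but hardly in A427. The epithelial markers EPCAM, KRT8 and KRT18 were present in both lines, KRT19 had at most 6 reads in A427, CD3E and DCN had 0 reads in all 6 libraries, and PECAM1 and CDH5 had at most 1. CD68 had 40 to 642 reads and COL1A1 376 to 829 across the libraries. VWF had 11 to 28 reads in A427 and 0 to 3 in HCC15, LUM 13 to 20 and 0 to 1, and COL1A2 at most 3. The epithelial gene CDH1 had 191 to 223 reads in A427. In HCC15 it had 513 in the control, 2919 with siRNA 2 and 362 with siRNA 4. PTPRC, a leukocyte gene, had 72 to 106 reads in A427 and 0 in HCC15, and its part in the results was not tested. Per length, in TPM (transcript abundance scaled by gene length and library size), the median of the 34 genes was 65.3 to 76.3 in A427 and 107 to 134 in HCC15. The highest was PTTG1, the securin that inhibits separase, with 773 to 817 TPM in HCC15, and the lowest gene of each library was CENPE, CDC25C or ESPL1, which ranged from 18.2 to 61.1 TPM. The estimated counts of AURKA, BUB1B, KIF4A and PTTG1 were not whole, as happens where reads match more than 1 sequence, and their values are less certain.

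**Figure D1:**
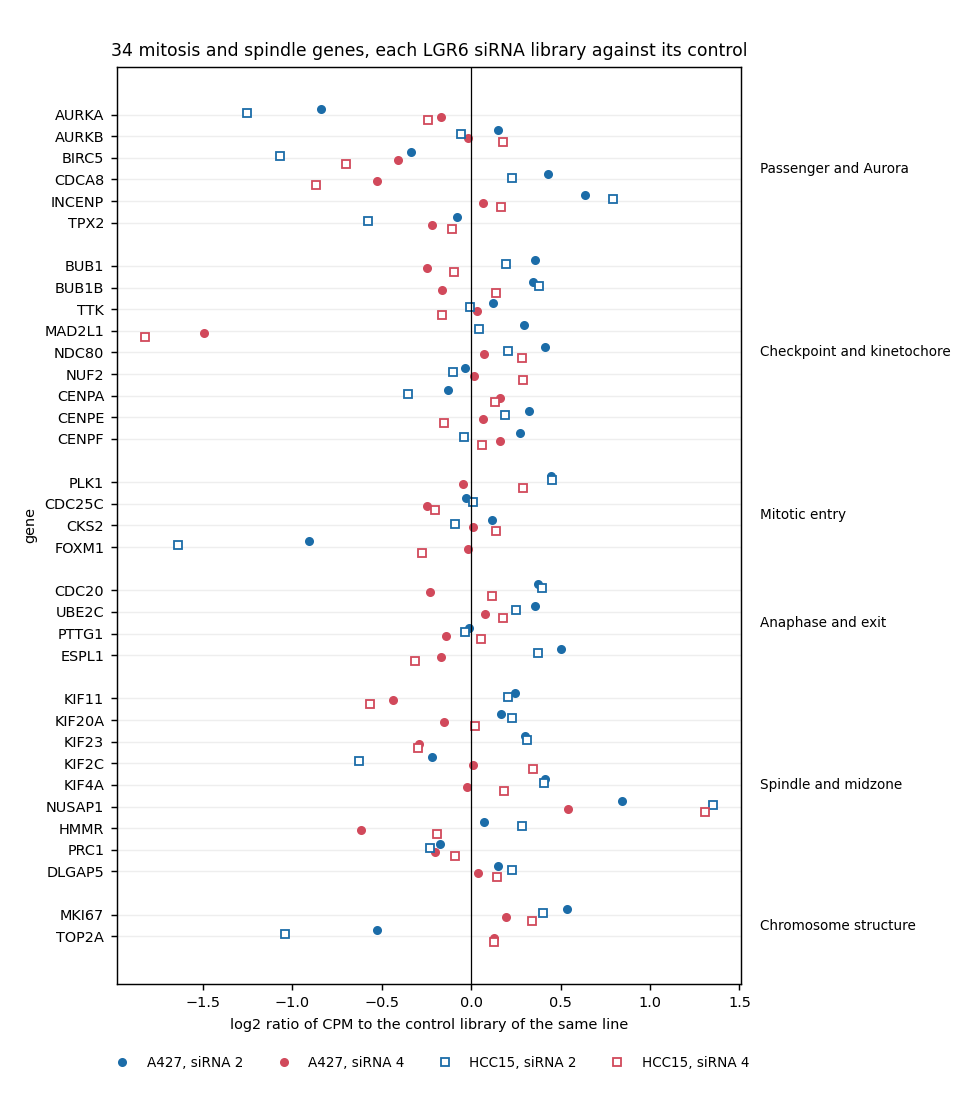
Each row is 1 of the 34 genes, grouped by role, and each symbol is the log2 ratio of CPM in 1 LGR6 siRNA library to the control library of the same line (circles A427, open squares HCC15; blue siRNA 2, red siRNA 4; symbols are set apart vertically for sight only). FOXM1, AURKA and TOP2A lie left with siRNA 2, MAD2L1, CDCA8 and KIF11 lie left with siRNA 4, and NUSAP1 lies right with both.

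With LGR6 siRNA 2, mitosis genes moved in both directions. FOXM1, AURKA, TOP2A and BIRC5 fell, and NUSAP1 and INCENP rose. FOXM1, the transcription factor that drives many genes of G2 and M phase, fell 2.40-fold, and of the proliferation markers TOP2A fell with it while MKI67 did not pass the test. These 6 of the 34 genes passed the test, 2 higher and 4 lower, where 7.62% of the 14481 genes tested passed, 2.96% higher and 4.66% lower. The median log2 fold change of the 34 genes was 0.18, with 23 of them above 0, and the median of all genes tested was -0.01.

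FOXM1 had 481 CPM in the A427 control, 257 with siRNA 2 and 476 with siRNA 4, and in HCC15 it had 407, 131 and 337. The siRNA 2 library was the lowest of each line, and the siRNA 4 library of A427 lay beside its control. The log2 fold change with siRNA 2 was -1.27 (SE 0.17, edgeR adjusted p = 0.00723). AURKA encodes the kinase that matures centrosomes and assembles spindle poles. In the order control, siRNA 2 and siRNA 4, it had 105, 58.6 and 93.1 CPM in A427 and 109, 46.0 and 92.5 in HCC15, a log2 fold change with siRNA 2 of -1.04 (SE 0.14, adjusted p = 0.00717). Its levels in the 2 lines were close in the control and with siRNA 4, and both siRNA 2 libraries lay below the other 4. TOP2A encodes the topoisomerase that untangles sister chromatids. Its level was 544, 379 and 594 CPM in A427 and 1114, 541 and 1221 in HCC15, so it fell with siRNA 2 in each line (log2 fold change -0.78, SE 0.15, adjusted p = 0.0224) and lay above its control with siRNA 4 in both lines. BIRC5, or survivin, targets the chromosomal passenger complex to centromeres. Its level was 113, 89.5 and 84.9 CPM in A427 and 113, 53.8 and 69.3 in HCC15, so both siRNAs left it below its control in both lines. The log2 fold change of BIRC5 with siRNA 2 was -0.70 (SE 0.17, adjusted p = 0.0474).

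Another subunit of the passenger complex, the scaffold INCENP, moved the other way. INCENP had 77.4, 120.5 and 81.2 CPM in A427 and 64.95, 112 and 72.9 in HCC15, which put both siRNA 2 libraries above the other 4 (log2 fold change 0.71, SE 0.12, adjusted p = 0.0122). NUSAP1, which bundles microtubules near chromosomes, rose most of the 34 genes. It had 59.9, 107 and 87.2 CPM in A427 and 118, 301 and 292 in HCC15, so every LGR6 siRNA library lay above the control of its line. Its log2 fold change with siRNA 2 was 1.09 (SE 0.18, adjusted p = 0.0114). MKI67, the gene of the Ki-67 marker that coats mitotic chromosomes, had 591, 855 and 677 CPM in A427 and 1195, 1579 and 1515 in HCC15, with a log2 fold change of 0.47 with siRNA 2 that did not pass (adjusted p = 0.055). PLK1, the Polo-like kinase, had 69.1, 94.3 and 67.0 CPM in A427 and 197, 269 and 241 in HCC15 and did not pass either (log2 fold change 0.45, adjusted p = 0.0745). CDC20, the activator of the anaphase promoting complex, had 124, 160.0 and 105 CPM in A427 and 186, 245 and 202 in HCC15 (0.39 on the log2 scale with siRNA 2, adjusted p = 0.109). AURKB, the kinase of the passenger complex, stayed within 33.4 to 37.6 CPM in A427 and 43.9 to 51.6 in HCC15, with a log2 fold change of 0.05 with siRNA 2 (SE 0.14, adjusted p = 0.876).

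By role, 3 of the 6 passenger and Aurora genes passed with siRNA 2 (INCENP higher, AURKA and BIRC5 lower), 1 of the 4 genes of mitotic entry (FOXM1), 1 of the 2 genes of chromosome structure (TOP2A) and 1 of the 9 spindle and midzone genes (NUSAP1). An unadjusted p under 0.05 in edgeR was found for 17 of the 34 genes and for 3563 of the 14481 genes tested. None of the 9 checkpoint and kinetochore genes passed in edgeR (2 at an unadjusted p under 0.05), and none of the 4 anaphase genes (3 at an unadjusted p under 0.05). Separase, ESPL1, was nearest among the latter with 132, 186 and 117 CPM in A427 and 78.6, 102 and 63.3 in HCC15 (log2 fold change 0.44, adjusted p = 0.0571). The count of 6 rested on single libraries. It came to 2 when the A427 control was left out, to 0 for the HCC15 control and to 2 for the siRNA 2 library of HCC15, and with DESeq2 it was 10. The alternatives were the 6 fits that left out 1 library, RLE size factors, no filter on low counts, DESeq2 and limma on TPM. Across all of them the log2 fold change ranged from -1.58 to -0.97 for FOXM1, from -1.23 to -0.85 for AURKA and from -1.05 to -0.52 for TOP2A. It ranged from -0.997 to -0.41 for BIRC5, from 0.66 to 0.81 for INCENP and from 0.80 to 1.45 for NUSAP1. BIRC5 also missed the threshold with RLE size factors (adjusted p = 0.0516), with no filter (0.0607) and with limma on TPM (0.0675).

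**Figure D2:**
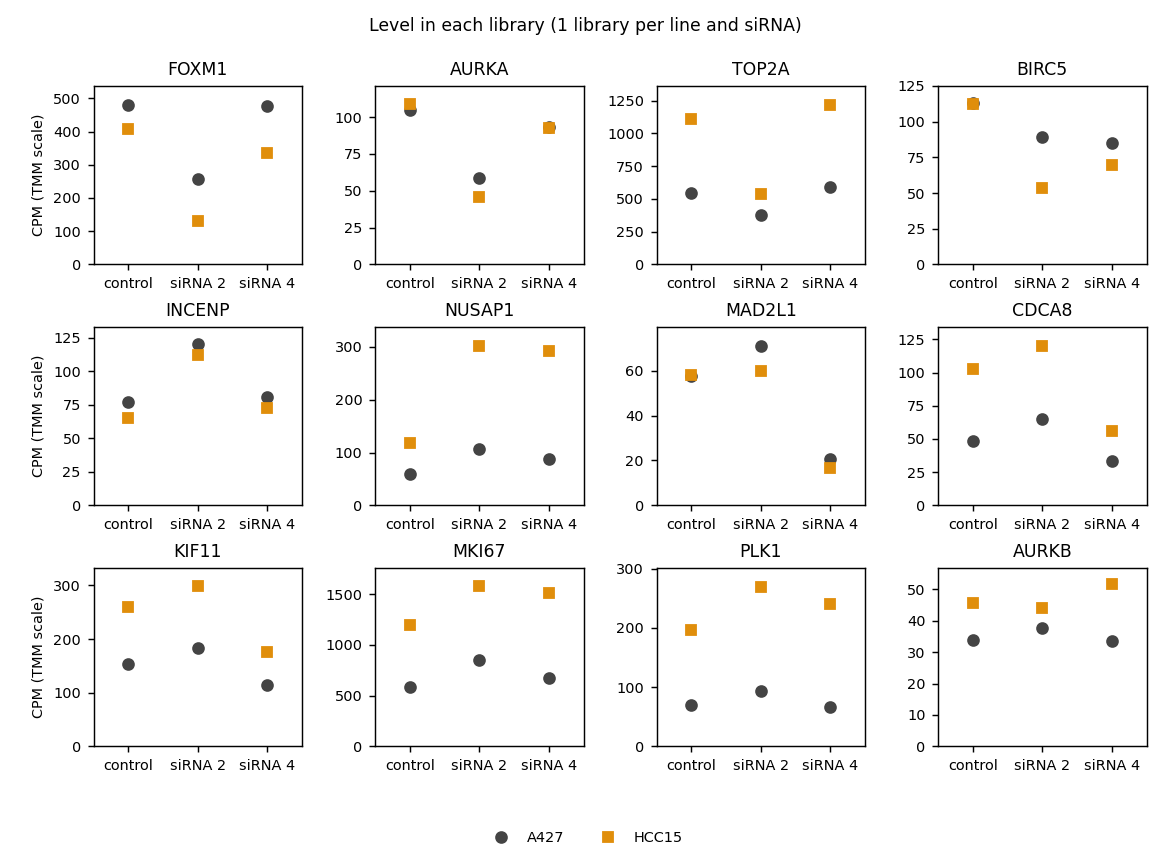
Level of 12 genes in CPM (y axes start at 0) in each of the 6 libraries, by siRNA on the x axis, with A427 as circles and HCC15 as squares. The siRNA 2 libraries are lowest for FOXM1, AURKA and TOP2A in each line, and the siRNA 4 libraries are lowest for MAD2L1, CDCA8 and KIF11.

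With LGR6 siRNA 4, MAD2L1 fell most, 3.15-fold, and CDCA8 and KIF11 fell with it, while NUSAP1 rose 1.90-fold. MAD2L1 encodes the checkpoint protein that sequesters CDC20 until kinetochores are attached. These 4 of the 34 genes passed, 1 higher and 3 lower, where 12.5% of all genes tested passed, 4.58% higher and 7.95% lower. The count of 4 is near the share over all genes. The median log2 fold change of the 34 genes was -0.04, with 15 above 0, and that of all genes was -0.01. This comparison shares its control libraries with that of siRNA 2, so the values of both are only set side by side.

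MAD2L1 had 57.8 CPM in the A427 control, 70.9 with siRNA 2 and 20.5 with siRNA 4, and in HCC15 it had 58.0, 59.9 and 16.4. Both siRNA 4 libraries lay far below the other 4, which were between 57.8 and 70.9 CPM. The log2 fold change was -1.66 (SE 0.14, adjusted p = 0.00121), and it was the call of the 4 that held whichever library was left out. Over all the alternatives the log2 fold change of MAD2L1 ranged from -1.78 to -1.51. CDCA8, or borealin, is a subunit of the passenger complex beside survivin. It had 48.2, 64.9 and 33.5 CPM in A427 and 102, 120.1 and 56.2 in HCC15, a log2 fold change with siRNA 4 of -0.70 (SE 0.13, adjusted p = 0.0134). KIF11, the kinesin that pushes the spindle poles apart, had 154, 183 and 114 CPM in A427 and 259, 299 and 175 in HCC15 (log2 fold change -0.50, SE 0.11, adjusted p = 0.0246). For CDCA8 and KIF11 alike, siRNA 4 gave the lowest library of each line and siRNA 2 the highest. NUSAP1 rose by 0.93 on the log2 scale (SE 0.18, adjusted p = 0.0136).

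Several genes that had passed with siRNA 2 did not pass with siRNA 4. The log2 fold change with siRNA 4 was -0.15 for FOXM1 (adjusted p = 0.588), -0.21 for AURKA (0.36), 0.13 for TOP2A (0.616), 0.12 for INCENP (0.556) and -0.56 for BIRC5 (0.0683). MKI67 stood at 0.27 (0.181), PLK1 at 0.13 (0.549), AURKB at 0.08 (0.743) and CDC20 at -0.05 (0.819). By role, 1 of the 6 passenger and Aurora genes passed (CDCA8), 1 of the 9 checkpoint genes (MAD2L1) and 2 of the 9 spindle and midzone genes (NUSAP1 higher, KIF11 lower). In edgeR none of the 4 entry genes, the 4 anaphase genes or the 2 genes of chromosome structure passed, with 0 at an unadjusted p under 0.05 in each. An unadjusted p under 0.05 in edgeR was found for 7 of the 34 genes and for 4256 of the 14481 genes tested. The count of 4 became 2 when the A427 control was left out, 1 for the HCC15 control and 1 for the siRNA 4 library of HCC15. Over all the alternatives the log2 fold change ranged from -0.82 to -0.56 for CDCA8, from -0.55 to -0.44 for KIF11 and from 0.61 to 1.26 for NUSAP1.

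Compared directly, the siRNAs against the same target left 12 of the 34 genes at levels that passed the test and 22 that did not. FOXM1, TOP2A, AURKA and KIF2C were higher with siRNA 4 than with siRNA 2, and MAD2L1, CDCA8, KIF11, ESPL1, KIF23, INCENP, HMMR and BUB1 were lower. The 12 genes are 4 higher and 8 lower, where 16.5% of all genes tested passed, 7.7% higher and 8.84% lower. The median log2 fold change of the 34 genes was -0.17, with 23 below 0, and that of all genes was 0.00. This comparison uses no control library for its difference, but it shares the siRNA libraries with the comparisons above.

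FOXM1 was 2.16-fold higher with siRNA 4 than with siRNA 2 (log2 fold change 1.11, SE 0.17, adjusted p = 0.00501). TOP2A was 1.87-fold higher (0.91 on the log2 scale, adjusted p = 0.00713) and AURKA 1.78-fold higher (0.83, adjusted p = 0.00678). KIF2C, the kinesin that depolymerizes microtubules at centromeres, had 77.4, 66.5 and 77.8 CPM in A427 and 149, 96.5 and 189 in HCC15, and its log2 fold change of 0.60 (adjusted p = 0.0478) came mainly from HCC15 (0.97, against 0.23 in A427). MAD2L1 was 3.54-fold lower with siRNA 4 (log2 fold change -1.82, SE 0.14, adjusted p = 0.000506) and CDCA8 2.04-fold lower (-1.03, SE 0.13, adjusted p = 0.00268). MAD2L1 and CDCA8 were the calls that held in all 6 fits with 1 library left out. KIF11 was 1.65-fold lower (adjusted p = 0.00509), ESPL1 1.60-fold lower (0.00747) and INCENP 1.51-fold lower (0.0127).

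The lower genes included motors and factors of the midzone and spindle. KIF23, the kinesin of the centralspindlin complex that works in cytokinesis, had 100.2, 123 and 81.9 CPM in A427 and 239, 297 and 195 in HCC15, so its order over the siRNAs was that of KIF11 in both lines (log2 fold change siRNA 4 against siRNA 2 -0.60, SE 0.11, adjusted p = 0.00987). HMMR, a hyaluronan receptor that also binds spindle microtubules, had 165, 174 and 108 CPM in A427 and 162, 196 and 142 in HCC15 (-0.58, adjusted p = 0.0224). BUB1, a checkpoint kinase at kinetochores, had 125, 160.2 and 105 CPM in A427 and 270, 309 and 252 in HCC15 (-0.45, adjusted p = 0.0406). In their 300-base promoter windows all 8 genes that were lower (CDCA8, KIF11, KIF23, ESPL1, INCENP, MAD2L1, HMMR and BUB1) held a CHR and a CCAAT box, as did 71.4% of all 28 matched genes. Of the higher genes with a matched promoter, TOP2A held both and KIF2C neither. By role, 3 of 6 passenger and Aurora genes passed (AURKA higher, CDCA8 and INCENP lower), 2 of 9 checkpoint genes (both lower), 1 of 4 entry genes (FOXM1), 1 of 4 anaphase genes (ESPL1), 4 of 9 spindle genes (KIF2C higher, KIF11, KIF23 and HMMR lower) and 1 of 2 chromosome genes (TOP2A). Of the genes always followed, CDC20 was next to the threshold (log2 fold change -0.44, adjusted p = 0.051), PLK1 stood at -0.32 (0.128), MKI67 at -0.20 (0.299), BIRC5 at 0.13 (0.64) and AURKB at 0.04 (0.892). The count of 12 dropped to 6 when the HCC15 siRNA 2 library was left out, to 2 when the siRNA 4 library of that line was, and to 10 for each of the others. BUB1 missed the threshold in all 6 left-out fits and with no filter (adjusted p = 0.0566). KIF2C missed it with RLE size factors (0.052), no filter (0.0565) and limma on TPM (0.0721), and in 4 of the 6 left-out fits. Over all the alternatives the log2 fold change ranged from -0.58 to -0.33 for BUB1 and from 0.31 to 0.89 for KIF2C.

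**Figure D3:**
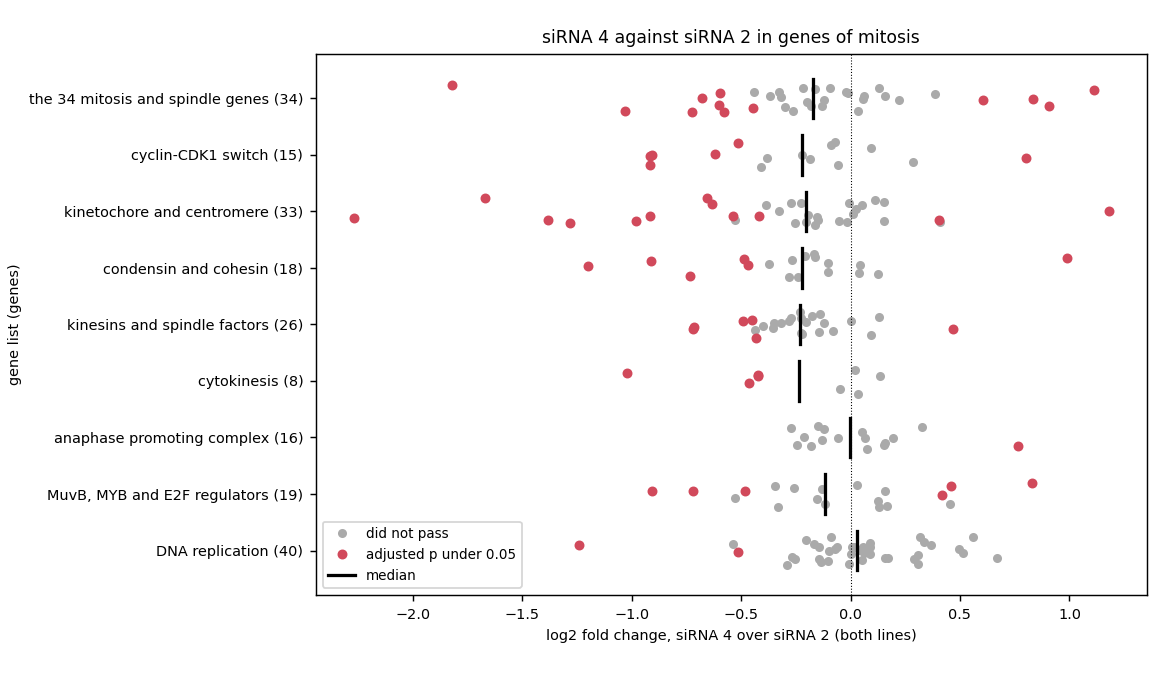
Log2 fold change of siRNA 4 over siRNA 2, both lines together, for each gene of the 34 and of 8 other lists (red: adjusted p under 0.05; bar: median of the list). The medians of the lists of mitosis lie between -0.24 and 0.00, and the DNA replication genes have a median of 0.03.

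Other genes of mitosis were counted in 7 lists, and 40 genes of DNA replication were set beside them. With siRNA 4 against control, where 4.58% of all genes tested were called higher and 7.95% lower, 8 of 33 further kinetochore and centromere genes fell and 0 rose, and the median of the 33 on the log2 scale was -0.09, where that of all genes was -0.01. CENPK fell 5.03-fold, with 26.1 CPM in the A427 control and 7.0 with siRNA 4, and 39.8 and 5.73 in the HCC15 pair (adjusted p = 0.00142), CENPH 2.41-fold (0.00153), SKA2 2.64-fold (0.00394) and SKA3 1.71-fold (0.0118). CENPK and CENPH belong to the constitutive network on centromeric chromatin, and the SKA proteins hold kinetochores on microtubules. Of 15 genes of the cyclin and CDK1 switch 3 fell and 0 rose (CCNA2, the cyclin A gene, with a log2 fold change of -0.65, BORA, the activator of AURKA towards PLK1, with -0.86, and CCNF with -0.67). Of 18 condensin and cohesin genes 4 fell and 0 rose (STAG2 -0.93, ESCO2 -0.62, SMC2 -0.59 and STAG1 -0.46), of 26 further kinesins and spindle factors 2 fell (HAUS6 -0.59 and ARHGAP11A -0.47), and of 8 cytokinesis genes ECT2 fell by 0.86 and CEP55 rose by 0.67. Of 16 genes of the anaphase promoting complex, ANAPC13 fell by 0.56. The counts of the kinesin and anaphase promoting complex lists are near the share over all genes.

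With siRNA 2 against control 2.96% of all genes were called higher and 4.66% lower. Each of the same lists held at most 1 call in a direction, which is near the share over all genes. Of the 15 switch genes these were CDC25A (log2 fold change 0.90) and CDC25B (-0.54), both phosphatases that activate cyclin-dependent kinases. NSL1 (-1.48) was called of the 33 kinetochore genes, and NCAPG2 (-0.93) and ESCO2 (0.58) of the 18 condensin and cohesin genes. KIF15 (0.62) was called of the 26 kinesins and spindle factors and CEP55 (0.53) of the 8 cytokinesis genes. CDC27 (-1.27), a subunit of the anaphase promoting complex, was called of the 16 genes of that complex. The direct comparison of siRNA 4 with siRNA 2, which called 7.7% of all genes higher and 8.84% lower, called 2 higher and 10 lower of the 33 kinetochore genes, whose median was -0.20 (CENPH -1.67, CENPK -2.27, CASC5 -1.38 and SKA3 -0.98, lower, and NSL1 1.18 and BUB3 0.41, higher), 1 and 5 of the 15 switch genes (CCNA2 -0.91, CDC25A -0.91, BORA -0.91 and CDC25B 0.80), 1 and 5 of the 18 condensin and cohesin genes (ESCO2 -1.20 and NCAPG2 0.99 among them), 1 and 5 of the 26 kinesins and spindle factors (ARHGAP11A -0.72), 0 and 4 of the 8 cytokinesis genes (ECT2 -1.02) and 1 and 0 of the 16 anaphase promoting complex genes (CDC27 0.77). Of the 40 replication genes 0 were higher and 2 lower (ORC6 -1.24 and PRIM1 -0.51).

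Over both siRNAs and both lines together, none of the 34 genes passed, and none of the 14481 genes did (0% called) in the fit that counts the siRNAs as samples of 1 group. The targeted gene LGR6 did not pass in this fit either (log2 fold change -2.29, SE 0.47, edgeR adjusted p = 0.17). Against control it passed as lower with siRNA 2 (edgeR adjusted p = 0.00379) and with siRNA 4 (0.00758). The nearest 2 of the 34 genes had an unadjusted p under 0.05 in edgeR, as did 1512 of the 14481 genes tested. NUSAP1 had a log2 fold change of 1.0 (SE 0.20, edgeR adjusted p = 0.205) and lay above its control in 4 of 4 siRNA libraries. BIRC5 had -0.63 (SE 0.18, adjusted p = 0.324) and lay below its control in 4 of 4. Then came MKI67 with 0.37 (0.501), INCENP with 0.45 (0.588), AURKA with -0.56 (0.593) and PLK1 with 0.30 (0.62). DESeq2 called 1 of the 34, NUSAP1, with a log2 fold change of 1.02 (adjusted p = 0.00139), and limma on TPM called 0. An alternative, named the replicate-block fit, used the fit of line plus siRNA and tested the mean of the siRNA 2 and siRNA 4 effects against control. The difference between the siRNAs is then not part of the spread, so it averages the tests of each siRNA and adds no replicate of silencing. In that fit 6 of the 34 genes passed, 2 higher and 4 lower, where 8.96% of all genes passed, 3.31% higher and 5.65% lower. These were NUSAP1 (1.01, adjusted p = 0.0101) and INCENP (0.42, 0.0444), higher, and MAD2L1 (-0.74, 0.00987), AURKA (-0.62, 0.0176), FOXM1 (-0.71, 0.0222) and BIRC5 (-0.63, 0.0346), lower. MAD2L1, AURKA and FOXM1 are means of 1 siRNA that lay low and 1 that lay near the control. INCENP is likewise a mean of unlike siRNAs, with a log2 fold change of 0.71 with siRNA 2 and 0.12 with siRNA 4.

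The response to the LGR6 siRNAs was not shown to differ between the lines for any of the 34 genes. A427 had 5 LGR6 reads in its control, so a response to silencing itself can hardly be read in that line. The test of the difference itself called 0% of all genes and 0 of the 34, with 0 of the 34 at an unadjusted p under 0.05 in edgeR and 0 called by DESeq2 or limma. Its estimates, HCC15 minus A427, ranged from -0.50 for BIRC5 (SE 0.37) to 0.63 for NUSAP1 (SE 0.35), and CENPF stood at -0.21, HMMR at 0.30, TTK at -0.16 and CENPE at -0.17, all with an adjusted p of 1. With 1 control library per line and SE values of 0.32 to 1.35, differences of this size were not detectable.

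Most of the mitosis genes were at higher levels in HCC15 than in A427. In the order control, siRNA 2 and siRNA 4, the summed level of the 34 genes was 4644, 4940 and 4497 CPM in A427 and 8938, 8621 and 9269 CPM in HCC15. In TPM the sums were 3492, 3761 and 3282 in A427 and 6021, 6290 and 5918 in HCC15. HCC15 was higher on both scales, but the order of the siRNAs within HCC15 changed with the scale. In the comparison of the lines 28 of the 34 genes passed, 24 higher and 4 lower in HCC15, where 76.5% of all genes passed, 37.2% higher and 39.3% lower. The median log2 fold change of the 34 genes was 0.92, and that of all genes was -0.03. All 3 HCC15 libraries lay above all 3 A427 libraries for 21 genes and below them for 3, that is 61.8% and 8.82% of the 34, against 32.7% and 35.3% of all genes tested.

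**Figure D4:**
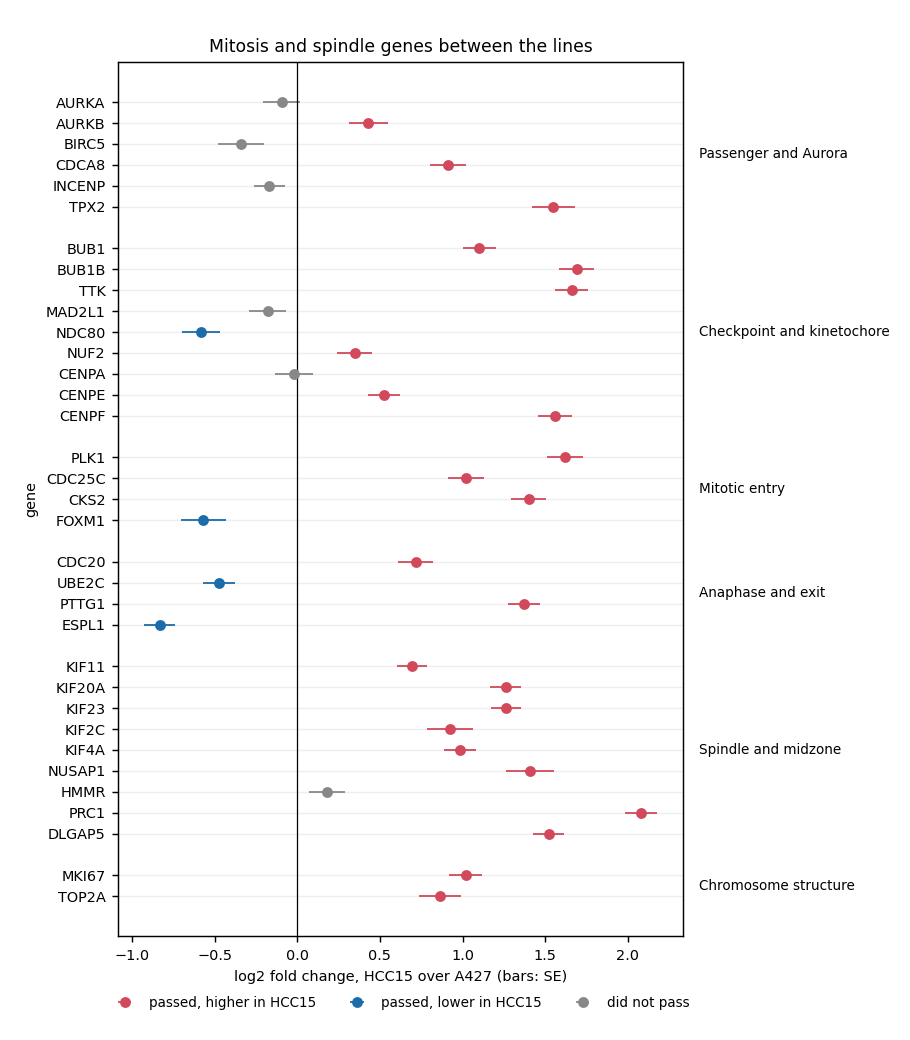
Log2 fold change of HCC15 over A427 for each of the 34 genes, with bars of 1 SE (red: passed, higher in HCC15; blue: passed, lower; grey: did not pass). PRC1 stands furthest right at 2.08, and ESPL1, NDC80, FOXM1 and UBE2C are the genes that passed below 0.

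PRC1, which bundles the antiparallel microtubules of the midzone, differed most, with 86.8 to 99.8 CPM in A427 and 354 to 416 in HCC15 (4.22-fold, log2 fold change 2.08, SE 0.10, adjusted p = 2.79e-07). Of the spindle and midzone genes 8 of 9 passed higher, among them DLGAP5 (2.88-fold), which stabilizes kinetochore fibres, NUSAP1 (2.65-fold), KIF23 and KIF20A (2.39-fold each), and HMMR did not pass (adjusted p = 0.159). Of the checkpoint and kinetochore genes 6 of 9 passed higher. The checkpoint kinase TTK had 45.5 to 49.6 CPM in A427 and 139 to 155.5 in HCC15 (3.17-fold), BUB1B, the checkpoint subunit BubR1, was 3.23-fold higher and CENPF, of the outer kinetochore, 2.95-fold higher. NDC80, which grips the microtubule end, went the other way, with 69.8 to 92.8 CPM in A427 and 46.6 to 56.7 in HCC15 (log2 fold change -0.58, adjusted p = 0.00144). Its partner NUF2 was 1.27-fold higher in HCC15 (adjusted p = 0.0171).

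The other roles were mixed. PLK1 was 3.08-fold higher in HCC15 (adjusted p = 2.29e-06), CKS2, which binds cyclin-dependent kinases, 2.64-fold and CDC25C 2.02-fold, whereas FOXM1 was lower (log2 fold change -0.57, adjusted p = 0.00501), with overlapping levels in the lines. In the anaphase group PTTG1 (2.58-fold) and CDC20 (1.64-fold) were higher, and ESPL1 (-0.83, adjusted p = 5.57e-05) and UBE2C (-0.47, adjusted p = 0.00201) were lower, so securin and the separase it inhibits stood in opposite directions. ESPL1 had 117 to 186 CPM in A427 and 63.3 to 102 in HCC15, which do not overlap. TPX2, the activator of AURKA, was 2.93-fold higher and AURKB 1.35-fold higher (adjusted p = 0.00941), while AURKA (log2 fold change -0.10, adjusted p = 0.459), BIRC5 (-0.34, 0.0528) and INCENP (-0.17, 0.137) did not pass. MKI67 was 2.03-fold and TOP2A 1.82-fold higher. The 3 libraries of a line differ in siRNA, so these p-values compare these 2 lines over siRNAs and not over cultures. Leaving out each library in turn kept 26 of the 28 calls in all 6 fits, the exceptions being AURKB and NUF2.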

How the data were processed

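RNA sequencing libraries of A427 and HCC15, 1 per line and siRNA, were prepared with the KAPA mRNA HyperPrep kit from column-purified, DNase-treated RNA, per the labels' protocols. The submitters' processing notes name FastQC 0.11.1, STAR 2.5.3a, RSEM 1.3.3 and the build hg19, with a gene annotation not given in the sources used here. Expected counts were deposited by the authors for each gene, with 5.75% to 6.29% of values per library not whole, and rounded before testing. The authors also deposited TPM, used for levels between genes and in an alternative.

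A gene was tested where 2 or more of the 6 libraries held 10 or more reads (14481 of 23686). CPM are on the TMM scale. edgeR 4.0.16 quasi-likelihood tests (R 4.3.3) were adjusted by Benjamini-Hochberg over all genes tested, with an adjusted p under 0.05 as the threshold. Each siRNA against control, siRNA 4 against siRNA 2 and the lines were compared in a fit of line plus siRNA (2 residual degrees of freedom), silencing across both lines in a fit of line plus arm (3), and the difference between the lines in a fit of line by arm (2). Alternatives were RLE size factors, no filter on low counts, DESeq2 1.42.0, limma 3.58.1 on log2(TPM + 1) and each library left out. A further alternative, named the replicate block, held the siRNA number as a term. For silencing across both lines it tested the mean of the effects of siRNA 2 and siRNA 4. The fits were tested on simulated counts.

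The 34 genes and the gene lists were chosen with earlier results of these data known. In each comparison up to 12 of the 34 genes per direction past the threshold were named, or, with fewer than 4, the 6 with the smallest p. MKI67, TOP2A, PLK1, AURKA, AURKB, FOXM1, CDC20 and BIRC5 were always named, and up to 4 genes past the threshold, or 2 not past it, per other list. NUF2, CDC25C, HMMR and INCENP between the lines, ESPL1 with siRNA 2, INCENP with siRNA 4, and NSL1 and BUB3 between the siRNAs were named after their values were seen. Libraries of A427 and HCC15 with the same siRNA number received the same reagent, per the labels, which pairs them.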

Additional observations from a re-analysis of the deposited data

How the results depend on the processing

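The counts of the 34 genes past the threshold kept within 1.5 times of those reported, except in the following cases. With siRNA 2 against control, DESeq2 called 10 against 6, and leaving out 1 library gave 0 to 7. With siRNA 4 against control, leaving out 1 library gave 1 to 5 against 4, and for siRNA 4 against siRNA 2 it gave 2 to 10 against 12. For silencing across both lines, DESeq2 called 1 and the siRNA number as a replicate block 6, against 0. The block gave 0 for the difference between the lines, as did the fit without it, and the other comparisons hold the siRNA as a term already. Where a library was left out, fewer samples were fitted and the lone library of an siRNA was taken to vary like the others. The difference between the lines could not be fitted without the control library of either line. Its estimates for 2 genes changed sign without passing: HMMR ranged from -0.00747 (A427 siRNA 4 library left out) to 0.681, and CENPE from -0.359 to 0.00716 (HCC15 siRNA 4 library left out). Of the values of single genes, 438 kept their direction and side of the threshold, 55 kept the direction and lost the threshold and 5 gained it.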

Other observations

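Among 19 genes of the MuvB, MYB and E2F regulators, which control transcription of the mitosis genes, siRNA 4 against control called 2 higher (E2F3, log2 fold change 0.92, and E2F4, 0.71) and 2 lower (MYBL1, -0.83, and NFYA, -0.53). Of all genes tested, 4.58% were called higher and 7.95% lower in that comparison. MYBL1, a MYB family factor, in the order control, siRNA 2 and siRNA 4, had 29.04, 32.5 and 16.9 CPM in A427 and 108, 108 and 59.0 in HCC15. NFYA, the DNA-binding subunit of NF-Y, had 87.1, 96.0 and 53.1 CPM in A427 and 38.7, 46.0 and 30.8 in HCC15. Both siRNA 4 libraries were the lowest of their line for each of these genes. With siRNA 2 the calls were E2F4 (0.55), higher, and LIN52 (-0.77), a MuvB subunit, lower, where 2.96% of all genes were higher and 4.66% lower. Between the lines 7 of the 19 genes were called higher and 8 lower in HCC15, where 37.2% of all genes tested were higher and 39.3% lower. The median of the 19 on the log2 scale was -0.04. Among them MYBL1 was 1.81 higher and NFYA 1.01 lower in HCC15 on that scale, and LIN9, another MuvB subunit, was 1.19 higher.

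Of the 40 replication genes, siRNA 4 against control called ORC6, of the origin recognition complex, lower (log2 fold change -1.14), PRIM1, the primase, lower (-0.49), and UHRF1, which maintains DNA methylation at replication forks, higher (1.13). The comparison called 4.58% of all genes tested higher and 7.95% lower, so the 40 genes do not stand out by their count. UHRF1 had 61.7, 101 and 119 CPM in A427 and 66.2, 93.9 and 162 in HCC15, and it was also called higher with siRNA 2 (0.61). Between the lines 23 of the 40 were higher and 7 lower in HCC15, where 37.2% of all genes tested were higher and 39.3% lower. The 4 with the smallest p were RFC3 (1.22), higher, and RFC4 (-1.34), TYMS (-1.14) and MCM2 (-1.01), lower. The median of the 40 was 0.48, where that of the 34 mitosis genes was 0.92.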
